A study of Rattus norvegicus with 12 samples.

Results

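The tumour necrosis factor (TNF) superfamily is a set of ligands, most of them made as membrane proteins, and the receptors that bind them. On the rat array studied here, 39 genes of the family were picked by name, 16 ligands and 23 receptors, out of 35839 gene names. They comprised every symbol beginning with Tnfsf or Tnfrsf and a number, with Fas, Faslg, Cd40, Cd27, Cd70, Ngfr, Eda, Edar, Lta and Ltb, and they were covered by 48 of 45598 probes. Tnf itself, Ltbr, Relt, Eda2r and Cd40lg belong to the family but not to this naming rule, and they are described with the pathway genes. RNA came from cells of F344 rat livers. Small hepatocytes, the small proliferating cells that grow out as colonies from liver cell preparations, had been sorted for the surface protein CD44 at day 9, grown on Matrigel and taken at passage 2. Cells of the LN111 group had then spent 3 h on laminin-111, those of the LN511 group the same time on laminin-511, and those of the Mat group on Matrigel, an extract of basement membrane. Mature hepatocytes taken straight from fresh livers (MH) were the control, so these cells differed from the small hepatocytes in cell type, in culture and in the sort. The cultured cells were kept in serum-free medium with 10 ng/mL EGF, 10 mM nicotinamide, dexamethasone, ascorbate and insulin-transferrin-selenium, which the labels do not tie to MH, and these agents cannot be told apart from the other differences. Age and sex were not in the labels used here. Each group had 3 arrays. The labels do not tie a replicate to an animal or a culture, so each p-value reflects only how far these arrays scatter, and that scatter may be technical.

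Most ligands of the family are trimers held in the membrane or released by proteases, and they act by gathering receptors into clusters. Receptors that carry a death domain, among them Fas, Tnfrsf1a, Tnfrsf10b and Tnfrsf21, can recruit caspases and start cell death. Many receptors, some of those with a death domain among them, activate NF-kB and MAP kinases, often through TRAF adaptors. A few, such as Tnfrsf11b, are secreted decoys. In the liver, Fas and Tnfrsf1a are known for hepatocyte death, and the pair Tnfsf12 and Tnfrsf12a for the growth of progenitor cells after injury in mice. Several other pairs, such as Cd70 with Cd27 and Tnfsf9 with Tnfrsf9, are known mainly from lymphocytes.

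Levels below are log2 of the array's processed signal relative to the 75th percentile of that array, so that 0 equals the 75th percentile. Levels of different genes come from different probes and are not set against each other. Between 52.2% and 62.7% of the spots were well above background on each array, and no spot was saturated. The MH arrays were dimmer, with 75th percentiles of 757 to 961 intensity units against 1130 to 3090 on the cultured arrays. The lowest signal well above background therefore lay at -6.84 to -5.61 on the cultured arrays, against -5.54 to -5.12 on the MH arrays, and several members had levels near these values. Markers of other liver cells moved between the groups as well. The summed level of 7 Kupffer cell markers, relative to the 75th percentile, was 0.155 to 0.923 on the cultured arrays against 15.6 to 17.8 on the MH arrays, and that of 6 sinusoidal endothelial markers was 0.0696 to 0.553 against 8.78 to 9.55. All 7 and all 6 were lower in cultured cells, in a comparison where 42% of all genes tested were lower and 30.8% higher. Of 5 biliary and progenitor markers, all were higher in cultured cells, with sums of 13.02 to 79.9 against 0.205 to 0.221 in MH, and Cd44, the sort marker, is one of them. Of 6 hepatocyte markers, 5 were lower in cultured cells, with sums of 176 to 491 against 870 to 1097 in MH, yet all 6 were well above background on all 12 arrays. In such bulk samples, fewer cells of a type and less RNA per cell cannot be told apart.

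Of the 39 members, 9 were well above background on all 12 arrays: the ligands Faslg, Ltb, Tnfsf12 and Tnfsf13 and the receptors Cd40, Tnfrsf12a, Tnfrsf1a, Tnfrsf1b and Tnfrsf21. For Faslg and Cd40, each with 2 probes, this held for 1 probe only. A further 8 members were well above background on every array of 1 or more groups, which made 17 members that could be tested, 6 ligands and 11 receptors. The other 22 were not tested. Among these, 12 were well above background on no array. They were Tnfsf4, Tnfsf8, Tnfsf11, Tnfsf14 and Tnfsf18, ligands known from activated lymphocytes, bone or endothelium, and the receptors Cd27, Tnfrsf11a, Tnfrsf13b, Tnfrsf13c, Tnfrsf17, Tnfrsf18 and Tnfrsf19. The receptors Tnfrsf13b, Tnfrsf13c and Tnfrsf17 are B cell receptors, and all 4 B cell markers on the array were likewise above background nowhere. The remaining 10 were seen on a few arrays. Cd70 was detected on 1 LN111, 2 LN511 and 2 Mat arrays and on no MH array, and Tnfsf15 on 2 LN111, 1 LN511 and 1 Mat array and on no MH array. Tnfsf10, the death ligand TRAIL, was detected on 1 MH array and on no cultured array. A gene not above background may still be expressed below what a probe detects.

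**Figure D1:**
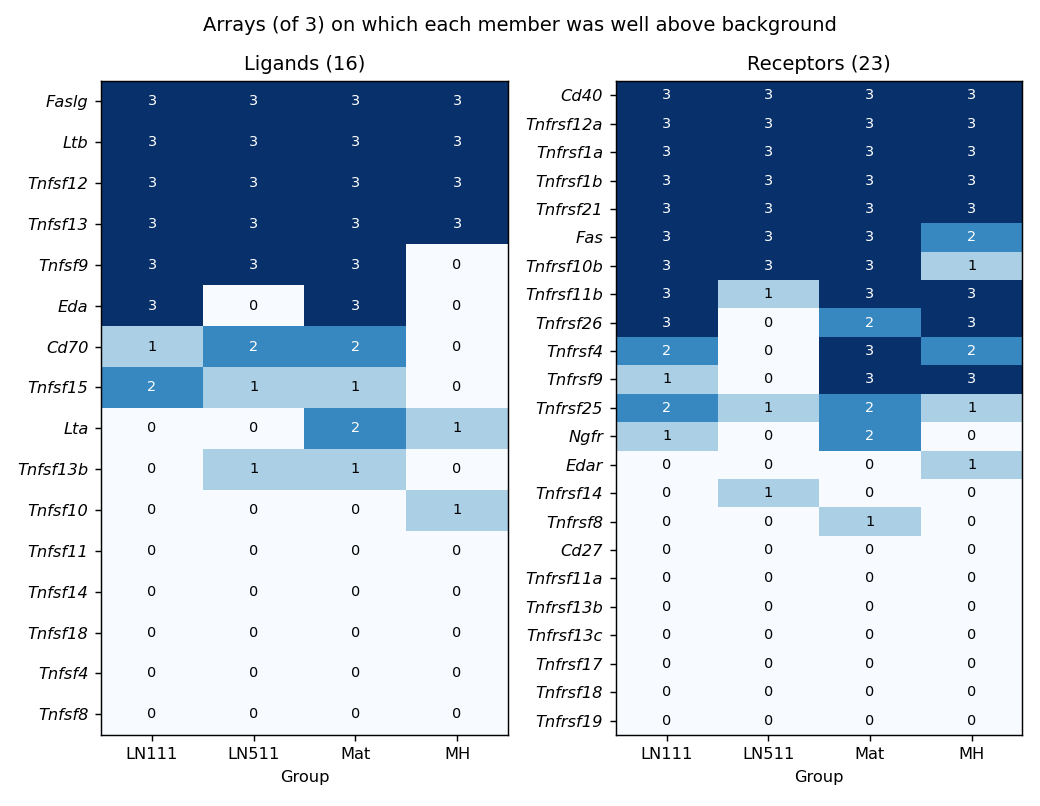
Number of arrays, of 3 in each group, on which each of 16 ligands (left) and 23 receptors (right) was well above background; columns are the groups and darker cells hold more arrays. 9 members were detected on all 12 arrays, 12 on none, and Tnfsf9 was detected on every cultured array and on no MH array.

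Among the members detected on all 12 arrays, cultured small hepatocytes differed from MH most in the receptors Tnfrsf12a and Tnfrsf21, which were higher, and in the ligand Tnfsf13, which was lower. The ligand Tnfsf9, not above background in MH, was higher too, and the receptor Tnfrsf9 was lower, with sizes that depend on the handling of dim signals. In the mean of the 3 cultured groups against MH, 13 of the 17 tested members passed an adjusted p of 0.05 in limma, 6 higher (Tnfrsf12a, Tnfrsf21, Tnfsf9, Tnfrsf10b, Fas and Eda) and 7 lower (Tnfsf13, Tnfrsf9, Tnfrsf11b, Tnfrsf26, Tnfsf12, Tnfrsf4 and Tnfrsf1a). Over all 18930 genes tested, 72.8% passed, 30.8% higher and 42% lower, so a call is common in this comparison and the members' share was close to that of all genes. The median log2 difference was -0.24 over the tested members, against -0.18 over all genes. The split depends on the scaling and background correction: it was 2 higher and 9 lower under normexp, where 18.8% of all genes were higher and 51.4% lower, and 8 higher and 2 lower without scaling, where 57.4% were higher and 16.1% lower. Levels of the cultured and MH arrays did not overlap for 8 members, and for 57.5% of all genes. Cd40, Faslg, Ltb and Tnfrsf1b did not pass. Tnfsf9, Eda, Tnfrsf10b and Fas could be tested only through cultured groups, so the rule for testing favoured a higher level in culture for them. Tnfrsf4 could be tested only through Mat, yet was lower. The MH arrays were all on 1 slide with 2 Mat arrays, while LN111, LN511 and the third Mat array were on the other. With the slide as a block, which rests on the Mat arrays alone, 8 members passed, 3 higher (Tnfrsf12a, Tnfrsf21 and Tnfsf9) and 5 lower (Tnfrsf1a, Tnfrsf26, Tnfrsf9, Tnfsf12 and Tnfsf13), against 52.9% of all genes, 21.9% higher and 31% lower.

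**Figure D2:**
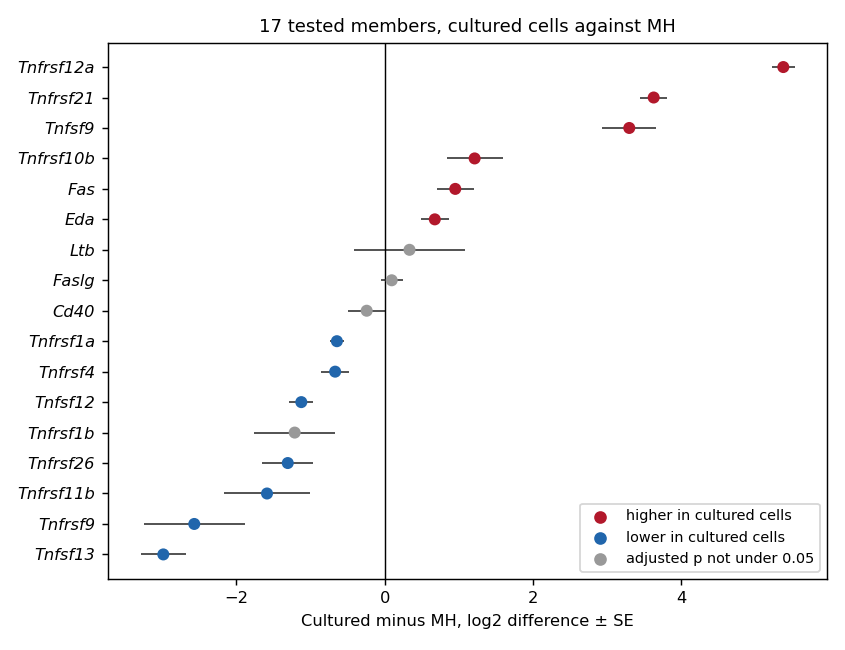
Log2 difference of the mean of LN111, LN511 and Mat minus MH for the 17 tested members, with bars of 1 standard error (SE) from the fit; red points were higher and blue points lower at an adjusted p under 0.05, grey points did not pass. Tnfrsf12a at 5.37 and Tnfsf13 at -2.98 are the ends of the range. Tnfsf9 and Eda were not well above background in MH, so their points depend on how low signals were handled.

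The receptor Tnfrsf12a had the largest difference of the 17. This small receptor binds Tnfsf12 and has no death domain. It lies on chromosome 10, and the bases before its start are shown because it rose most, with matches to the NF-kB-like pattern in capitals; those of Tnfrsf21, the other receptor that rose strongly, follow for comparison and hold none. Both are RefSeq sequences of build GRCr8, read on the minus strand, from chr10:13213649-13213898 and chr9:25451324-25451573, and each runs over the 250 bases before the start.
Tnfrsf12a: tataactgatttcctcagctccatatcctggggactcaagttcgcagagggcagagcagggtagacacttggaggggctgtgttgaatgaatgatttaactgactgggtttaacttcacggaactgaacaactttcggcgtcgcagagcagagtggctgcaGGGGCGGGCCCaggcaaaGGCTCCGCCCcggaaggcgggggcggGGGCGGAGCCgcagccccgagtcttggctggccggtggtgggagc
Tnfrsf21: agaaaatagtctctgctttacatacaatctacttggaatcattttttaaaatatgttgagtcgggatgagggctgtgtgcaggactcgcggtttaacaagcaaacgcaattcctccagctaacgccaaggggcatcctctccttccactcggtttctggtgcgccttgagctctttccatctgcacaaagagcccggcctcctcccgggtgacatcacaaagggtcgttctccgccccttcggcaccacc
The pattern searched was GGG, then any 5 bases, then CC, on both strands, overlapping matches included. Tnfrsf12a held 4 matches and Tnfrsf21 none. The pattern is loose: it was found in 42.3% of 33469 rat promoters and in 16 of the 29 members with a promoter sequence. The AP-1 pattern TGANTCA was in 6.34% of promoters and in 3 members, and the TEAD pattern GGAATG in 12.1% and in 7 members, and neither was before the start of Tnfrsf12a or Tnfrsf21. A match is only a match of letters.

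Tnfrsf12a stood at 2.94, 2.24 and 2.74 on the LN111 arrays, 3.88, 3.68 and 3.74 on LN511, 3.31, 3.26 and 3.30 on Mat, and -1.90, -2.14 and -2.39 on MH. Every cultured array was far above every MH array. The difference was 5.37 ± 0.15 log2 (SE), or 41.5-fold, with an adjusted p of 1.73e-09 in limma. Within the slide that holds both groups, the 2 Mat arrays were 5.43 log2 above the 3 MH arrays. Its ligand, Tnfsf12, went the other way. Tnfsf12 had levels of 0.28, 0.84 and 0.05 on LN111, 0.25, 0.41 and 0.36 on LN511, 0.18, 0.59 and 0.33 on Mat, and 1.54, 1.35 and 1.57 on MH. All 9 cultured arrays lay below the 3 MH arrays, by 1.12 ± 0.16 log2 on average, a 2.18-fold lower level (adjusted p = 0.000109). The sign of a small difference depends on the scaling between arrays, since the MH arrays were dimmer: without scaling, the median of all genes moved to 0.86, and the Tnfsf12 difference was -0.08 log2.

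The death-domain receptor genes did not move as 1 group. Tnfrsf21, or death receptor 6, was at -0.89, -1.29 and -1.10 on LN111, -0.27, -1.18 and -0.60 on LN511, -0.76, -0.995 and -0.68 on Mat, and -4.48, -4.70 and -4.29 on MH. The cultured arrays did not overlap those of MH, and the rise was 3.63 ± 0.18 log2, or 12.4-fold (adjusted p = 5.46e-08). Tnfrsf10b, the TRAIL receptor, was well above background on all 9 cultured arrays but on only 1 of 3 MH arrays. It was at -4.48, -4.48 and -4.33 on LN111, -3.90, -4.56 and -4.80 on LN511, -4.30, -4.15 and -4.32 on Mat, and -6.90, -4.88 and -4.97 on MH. The groups did not overlap, but MH replicate 1 stood far below the other two. The difference was 1.21 ± 0.38 log2 (adjusted p = 0.0139). It was 0.557 log2, and passed, when MH replicate 1 was left out. With signals raised to the background it was 0.67 log2 and passed, and it was -0.15 log2 and did not pass under a normexp background correction.

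Fas, the receptor of Fas ligand, had cultured levels from -4.43 to -2.81 with a median of -3.35, against -5.12, -3.81 and -4.26 in MH, where 2 of 3 arrays were well above background. Its difference of 0.95 ± 0.25 log2 passed (adjusted p = 0.00598), although the groups overlapped. With the mean over its probes it was 0.46 log2 and under normexp 0.08 log2, and it passed in neither. Tnfrsf1a, the main receptor of TNF, was detected everywhere and varied little, from 1.65 to 1.90 with a median of 1.73 in culture and at 2.52, 2.46 and 2.29 in MH. Every cultured array was below every MH array, by 0.64 ± 0.09 log2 (adjusted p = 0.000128). That sign depends on the scaling: the difference was 0.17 log2 under quantile scaling and 0.40 without scaling, and it passed in neither. Tnfrsf25, another death-domain receptor, was detected on 6 arrays of 12 and not tested.

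Tnfsf9, the ligand of Tnfrsf9 and a costimulator of T cells, was on every cultured array and on no MH array. Its levels were -3.82, -3.16 and -4.28 on LN111, -4.83, -3.57 and -4.52 on LN511, -4.25, -3.05 and -4.59 on Mat, and -7.27, -7.53 and -7.11 on MH. Since MH was not well above background, the size of the difference is given as a bound: with MH signals raised to the background, cultured cells were at least 2.46-fold higher. The fitted difference was 3.30 ± 0.37 log2 (adjusted p = 1.62e-05). Under normexp the difference was 0.42 log2 and did not pass. Such a bound compares the brighter group's mean with the dimmer group's signals, raised where lower to the lowest signal that counted as well above background on that array. Some spots not counted as above background read higher than that signal. The words "at least", here and below, therefore hold only for this floor and this scaling, and differences under normexp can be smaller. It carries no sampling error, and an adjusted p printed with a bound here and below is that of the fitted difference. Tnfrsf9, the receptor of Tnfsf9, moved the opposite way. Tnfrsf9 was at -5.95, -8.38 and -5.73 on LN111, -6.69, -7.00 and -6.12 on LN511, -5.59, -5.86 and -3.36 on Mat, and -4.52, -3.42 and -2.59 on MH. It was well above background on 1 LN111 array, on no LN511 array and on all Mat and MH arrays, and Mat replicate 3 lay within the range of MH. The fitted difference was -2.57 ± 0.68 log2 (adjusted p = 0.00607), with 4 of 9 cultured arrays above background. It was -2.03 log2 with signals raised to the background and -4.40 log2 with the slide as a block, so its size is not settled. On LN511 alone, where it was not above background, it was at least 4.69-fold lower than in MH (adjusted p = 0.00744).

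Tnfsf13, the ligand APRIL that sustains plasma cells, was lower in culture. It was at -4.64, -4.17 and -4.45 on LN111, -3.52, -3.67 and -3.70 on LN511, -3.89, -3.86 and -4.09 on Mat, and -0.29, -2.10 and -0.66 on MH. The groups were apart on all arrays, although MH replicate 2 was lower than the other MH arrays. The difference was -2.98 ± 0.31 log2, a 7.91-fold lower level (adjusted p = 9.21e-06). The Tnfsf12 and Tnfsf13 probes are neighbours on chromosome 10 in build rn4, at chr10:56503800-56503859 and chr10:56500182-56500241 on the minus strand, and both members were lower in culture. Macrophages are a known source of Tnfsf13. The Kupffer cell markers named above moved with it, and their part in the result was not tested.

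Tnfrsf11b, osteoprotegerin, is a secreted decoy for Tnfsf11 and also binds Tnfsf10. Its levels were -3.40, -4.02 and -4.09 on LN111, -5.05, -8.15 and -8.10 on LN511, -3.94, -5.04 and -4.10 on Mat, and -3.47, -3.85 and -3.23 on MH. LN511 replicates 2 and 3 were not above background, while LN111 and MH overlapped. The difference of -1.59 ± 0.58 log2 (-1.07 with signals raised to the background) passed (adjusted p = 0.0302), but not with any 1 MH array left out: without MH replicate 1, 2 or 3 the adjusted p was 0.0795, 0.0526 and 0.100. Tnfrsf26, another receptor, was at -4.71, -5.13 and -4.04 on LN111, -7.17, -7.83 and -6.42 on LN511, -5.45, -6.37 and -5.27 on Mat, and -4.93, -4.37 and -4.25 on MH. LN111 lay within or near the range of MH, and LN511 was below every other array. Its difference was -1.31 ± 0.35 log2 (adjusted p = 0.00602), and -0.84 log2 with signals raised to the background, since no LN511 array was above background. Tnfrsf4, or OX40, a costimulatory receptor of T cells, was near background, at -5.93 to -5.14 in culture and -5.09 to -4.40 in MH, and its difference was -0.67 ± 0.19 log2 (adjusted p = 0.00906). Leaving out MH replicate 1 raised that adjusted p to 0.0604. Without scaling, Tnfrsf4 differed by 0.38, Tnfrsf11b by -0.54 and Tnfrsf26 by -0.26 log2, and none of these passed.

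Eda, ectodysplasin A, is a ligand known from hair, tooth and gland development. It was well above background on the 3 LN111 and the 3 Mat arrays and on no LN511 or MH array. The levels were -4.81, -4.32 and -4.01 on LN111, -6.04, -6.01 and -5.96 on LN511, -5.11, -5.37 and -5.12 on Mat, and -5.59, -6.34 and -5.69 on MH. The fitted difference from MH was 0.68 ± 0.19 log2 for cultured cells (adjusted p = 0.00877) and 1.49 ± 0.23 log2 for LN111 (adjusted p = 0.000262). As bounds, these were 1.08-fold and 1.90-fold. With signals raised to the background, the differences were 0.20 and 0.93 log2. Leaving out MH replicate 2 raised the cultured adjusted p to 0.0560, and the normexp correction gave -0.41 log2 with an adjusted p of 0.0469. Its receptor Edar was detected on 1 MH array. Eda2r, an Eda receptor outside the naming rule, was detected on 2 LN111, 1 LN511 and 2 Mat arrays and on no MH array, and was not tested.

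**Figure D3:**
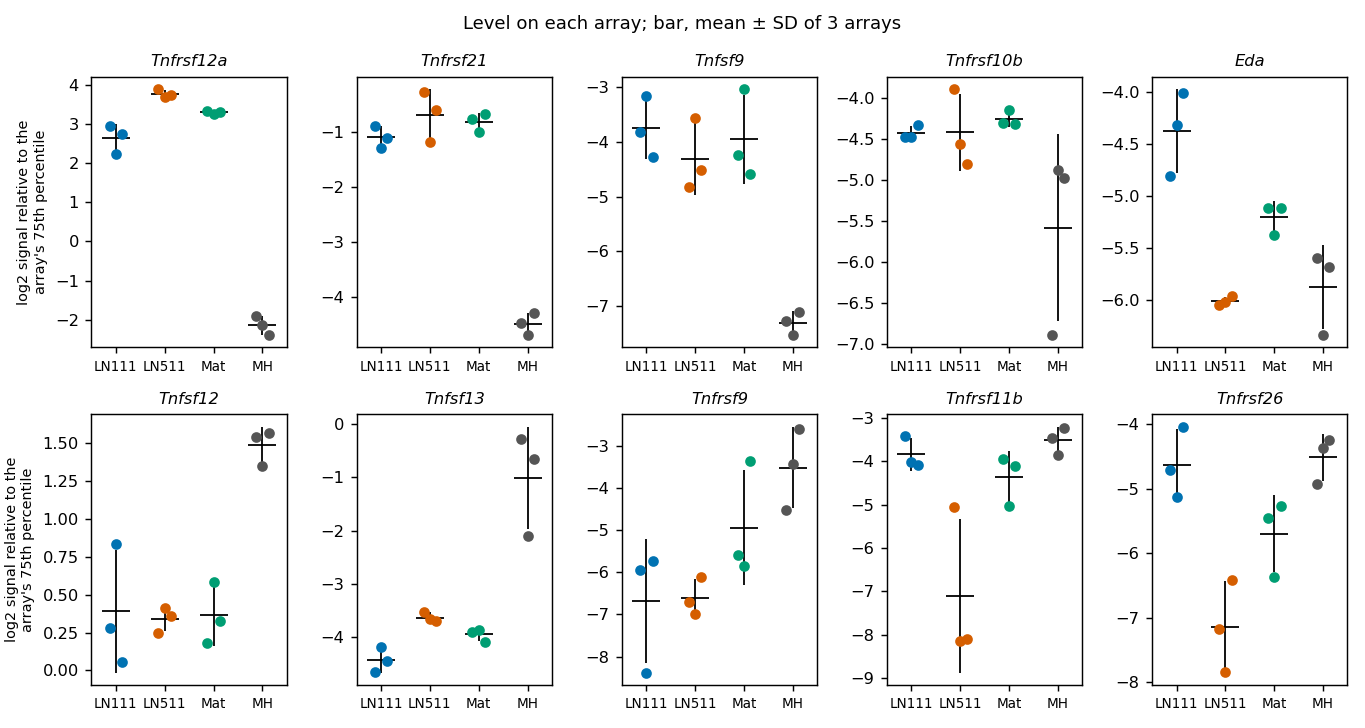
Levels of 10 members on each array, as log2 signal relative to the array's 75th percentile, by group; points are arrays, and black bars give the mean ± SD of 3 arrays. Each panel has its own vertical axis. Tnfrsf12a, Tnfrsf21 and Tnfsf9 were high on all cultured arrays, while Eda, Tnfrsf11b and Tnfrsf26 were low on LN511.

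The 4 members that did not pass were of differing kinds. Ltb, lymphotoxin beta, ran from -4.85 to -0.86 in culture, against -3.06 to -2.74 in MH, with a difference of 0.34 log2 and a 95% interval from -1.34 to 2.01. Tnfrsf1b, the TNF receptor found mainly on immune and endothelial cells, ran from -2.93 to 0.36 in culture, against -0.32 to 0.49 in MH, and its difference was -1.21 ± 0.54 log2 (adjusted p = 0.0667). With LN111 replicate 1 or LN511 replicate 1 left out, Tnfrsf1b passed as lower. Set against MH by coating, it passed as lower on LN511, at -1.87 ± 0.67 log2 (adjusted p = 0.0291 in limma). On LN111 and Mat, at -0.51 and -1.25 log2, it did not pass. The T and NK cell markers, of which 3 of 7 were tested and 2 were lower in culture, and the Kupffer cell and endothelial markers moved in the same direction, and their part in the Tnfrsf1b difference was not tested. Cd40, a receptor of antigen-presenting cells, differed by -0.24 log2 with an interval from -0.80 to 0.32. Faslg, Fas ligand, differed by 0.10 log2 with an interval from -0.23 to 0.42.

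For some genes, different probes gave different answers. Faslg has 2 probes at chr13:77471319-77471378 and chr13:77472996-77473055 of rn4, both on the minus strand. The array's annotation assigns the first to a predicted RefSeq transcript and the second to a known one. The first had levels of -2.65 to -2.19 on the cultured and -2.87 to -2.25 on the MH arrays, while the second was above background on 4 of 9 cultured arrays and no MH array. Fas has 2 probes as well, at chr1:238259523-238259582 and chr1:238274686-238274745 on the plus strand: the one that stands for it differed by 0.95 log2, and the other, above background on 5 cultured arrays and 1 MH array, by -0.02. That other probe had means of -4.80 on LN111, -7.27 on LN511 and -5.83 on Mat, with 3, 0 and 2 arrays above background. The probe that stands for Fas had means of -3.01, -3.30 and -4.03 there. Of the Eda probes, at chrX:88393653-88393712 and chrX:88390229-88390288 on the plus strand, the second was above background nowhere. The second Cd40 probe, above background on 4 cultured arrays and no MH array, differed by 0.87 log2, against -0.24 for the first. The first 30 bases of the probes of Fas, Faslg and Eda are given so that the sites can be found, with the probe that stood for the gene first.
Fas, first probe: ttcgtgaaaccgacaacaactgctcagaag
Fas, second probe: tgcattagaattttataccaggagctggga
Faslg, first probe: tagacatcccgtggtctttatcaaaagaag
Faslg, second probe: agagcgattctaaagagtcacatgagtaca
Eda, first probe: atgaggtgtgtcatttctttattcaaaaag
Eda, second probe: tctatcaatatgagcaagcacaccaccttc
No base is in capitals, because no motif was searched for in these probes. The Faslg values, and the Fas values among the coatings, therefore rest on which probe is read.

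Each coating was also set against MH in the same fit, and these comparisons share the MH arrays. On LN111, 10 of 17 members passed, 6 higher and 4 lower, against 66.7% of all genes, 26.9% higher and 39.8% lower. On LN511, 13 passed, 5 higher and 8 lower, against 67.6% of all genes, 31.1% higher and 36.5% lower. On Mat, 9 passed, 5 higher and 4 lower, against 67.3% of all genes, 26.2% higher and 41% lower. Tnfrsf10b was among the higher calls on LN111 (adjusted p = 0.0468), LN511 (adjusted p = 0.0448) and Mat (adjusted p = 0.0261). With 1 array left out, its call was lost in 9 of 12 fits on LN111, 9 on LN511 and 3 on Mat. Under normexp the splits were 2 higher and 5 lower on LN111, 2 and 8 on LN511 and 2 and 10 on Mat, and without scaling 9 and 2, 5 and 4, and 11 and 1. The shares of all genes moved the same way: 15.3% to 20.1% were higher under normexp and 37.4% to 65.5% without scaling. Tnfrsf12a was 4.78, 5.91 and 5.44 log2 above MH on LN111, LN511 and Mat, and Tnfrsf21 was 3.397, 3.81 and 3.68 log2 above. Tnfrsf11b was -0.33, -3.59 and -0.85 log2 from MH on LN111, LN511 and Mat, and passed only on LN511 (adjusted p = 0.0012), where 1 of 3 arrays was above background and the difference was -2.04 log2 with signals raised to the background. Within the slide shared by MH and 2 Mat arrays, 10 of 17 members passed, 4 higher and 6 lower, against 62.1% of all genes; there Tnfsf13 differed by -2.86 log2, Tnfsf12 by -1.10 and Tnfrsf9 by -2.21.

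Laminin-111 was set against laminin-511 first. On LN111, Eda, Tnfrsf11b and Tnfrsf26 were higher than on LN511, and Tnfrsf12a and Tnfsf13 were lower. These 5 of 17 members passed, 3 higher and 2 lower, against 17.9% of 17911 genes, 6.12% higher and 11.8% lower. Eda, Tnfrsf11b and Tnfrsf26 could be tested only through LN111 or Mat, so the rule for testing favoured a higher level there than on LN511. With every array required above background these were not tested, and 2 members passed, against 14.6% of all genes. The split was 0 higher and 2 lower under normexp and 3 higher and 0 lower without scaling, against 3.75% of all genes higher and 12.1% lower, and 8.51% and 2.51%. The members' median was 0.05 log2, against -0.15 over all genes. The levels of LN111 and LN511 did not overlap for 6 members, and for 35% of all genes. All 6 of these groups' arrays were on 1 slide. With the replicate number as a block, 7 members passed, against 27.2% of all genes. Eda was at least 2.56-fold higher on LN111 (adjusted p = 0.00345), and Tnfrsf26 at least 2.16-fold higher (adjusted p = 0.00923), since neither was above background on LN511. These adjusted p belong to the fitted differences of 1.63 and 2.52 log2. Tnfrsf11b was 3.26 ± 0.79 log2 higher (adjusted p = 0.0266), with 1 LN511 array above background. It was 1.71 log2 with signals raised to the background, and leaving out 1 array moved it between 2.74 and 4.29 log2. Leaving out LN111 replicate 1 or 3 or LN511 replicate 2 or 3 raised its adjusted p to 0.0763, 0.0630, 0.0813 and 0.0894. Under normexp, Eda, Tnfrsf11b and Tnfrsf26 no longer passed, with differences of 0.36, 0.80 and 0.48 log2. Tnfrsf12a was -1.13 ± 0.18 log2 from LN511, 2.18-fold lower on LN111 (adjusted p = 0.00672), and Tnfsf13 was -0.79 ± 0.15 log2, 1.73-fold lower (adjusted p = 0.0111). These last 2 were detected on all 12 arrays, and without scaling neither passed, at -0.63 and -0.30 log2.

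For the other 12 members, the difference between LN111 and LN511 did not pass, and the intervals of several were wide. For Fas this holds for the probe that stood for it, while the second Fas probe was lower on LN511, where it was not above background. Ltb differed by -1.48 log2 with a 95% interval from -3.87 to 0.90, and Tnfrsf1b by 1.36 with an interval from -0.32 to 3.03. Intervals were narrow for Tnfrsf1a, at -0.16 log2 from -0.42 to 0.10, and for Tnfsf12, at 0.05 from -0.44 to 0.54. Some markers differed between these coatings too. Pdgfrb, a marker of stellate cells, was 4.32 ± 0.59 log2 higher on LN111 than on LN511, while the other 3 tested stellate markers did not pass, and Lrat was at -3.93, -1.07 and -4.09 on LN111 against -3.48, -0.48 and -1.93 on LN511. Cd7, 1 of 2 tested T and NK cell markers, was 2.86 ± 0.45 log2 higher. Tek, 1 of 2 tested endothelial markers, was at least 1.49-fold higher. Epcam and Sox9, 2 of 5 progenitor markers, differed by -1.67 and -1.63 log2. Over the whole lists, the summed stellate level was 1.80 to 4.90 on LN111 against 0.95 to 2.32 on LN511, with 4 of 5 markers above background on all arrays of each. The T and NK sum was 0.244 to 0.464 against 0.130 to 0.186, with 4 of 7 and 5 of 7 markers above background on no array of the group. The endothelial sum was 0.143 to 0.553 on LN111 against 0.0701 to 0.112 on LN511, with 3 of 6 and 5 of 6 markers above background on no array. The part of such cells in the Tnfrsf11b and Tnfrsf26 differences was not tested.

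Laminin-511 against Matrigel gave a single call. Eda was at least 1.45-fold lower on LN511 (adjusted p = 0.0478), so that 1 of 17 members passed, lower, against 8.23% of all genes and 1.16% lower. Eda could be tested only through LN111 and Mat, so the rule for testing favoured this direction. The call was lost (adjusted p from 0.0658 to 0.177) when LN111 replicate 2 or any LN511 or Mat array was left out, and with the slide as a block (adjusted p = 0.282). Under normexp 2 members passed, both higher, against 19% of all genes higher, and without scaling 11, all lower, against 58.7% of all genes lower. Levels did not overlap for 7 members, and for 32.2% of all genes. With the replicate number as a block, since same-numbered LN511 and Mat arrays deviated together, 3 members passed as lower, against 13.3% of all genes called and 3.33% lower. They were Eda (adjusted p = 0.0382), Tnfrsf11b (adjusted p = 0.0262) and Tnfrsf26 (adjusted p = 0.00403), which was not above background on LN511. Tnfrsf11b differed by -2.74 log2, and by -1.19 with signals raised to the background, with 1 of 3 LN511 arrays above it. Without that block, Tnfrsf11b had an adjusted p of 0.077 and Tnfrsf26 of 0.0986.

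Laminin-111 against Matrigel gave none. In limma, 0 of 17 members and 0% of 17911 genes passed an adjusted p of 0.05. At an unadjusted p under 0.05, 5 members (Eda, Fas, Tnfrsf12a, Tnfrsf26 and Tnfsf13) and 12.2% of all genes passed, and the smallest adjusted p of a member was 0.323. Levels did not overlap for 7 members, and for 17.8% of all genes. Fas was 1.02 ± 0.21 log2 higher on LN111, but it did not pass (adjusted p = 0.323). Tested for any difference among the 3 coatings at once, 5 members passed (Eda, Fas, Tnfrsf12a, Tnfrsf26 and Tnfsf13), against 13% of all genes. For Tnfrsf12a, Tnfsf13, Eda, Tnfrsf11b and Tnfrsf26, the group mean of Mat lay between those of LN111 and LN511. These are the members that passed in LN111 against LN511, so they were picked for a gap between those groups. Their order is no evidence of a graded effect of coating.

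Some members varied with the replicate number. Replicate 2 was the lowest of the 3 in every coating for 7 of 17 members (Cd40, Ltb, Tnfrsf12a, Tnfrsf1b, Tnfrsf21, Tnfrsf26 and Tnfrsf9), and for 12.6% of all genes. Ltb was at -4.85, -2.94 and -4.32 on replicate 2 of LN111, LN511 and Mat, against -3.40 to -0.86 on replicates 1 and 3. Its mean over the coatings was 2.28 log2 lower on replicate 2 than on the others, and for Tnfrsf1b 1.68 lower. Tnf varied in the same way, at -4.58, -2.97 and -4.03 on replicate 2, against -1.71 to 0.38 on the others. Tnfsf9 went the other way, 1.12 log2 higher on replicate 2. In MH, replicate 2 was the lowest for Ltb, Tnf and Tnfrsf21, and not for Cd40, Tnfrsf12a, Tnfrsf1b, Tnfrsf26 or Tnfrsf9. Marker levels in culture also moved with the number. The hepatocyte sum was 176 to 246 on replicate 2 against 241 to 491 on the others, with 3 of 6 markers lowest on replicate 2 in every coating. The biliary and progenitor sum was 42.9 to 79.9 against 13.02 to 45.0, with 2 of 5 markers highest there, and the stellate sum was 0.95 to 1.80 against 1.24 to 4.90, with 3 of 5 markers lowest and 1 highest. Their part in the members' pattern was not tested. The labels do not say what the cultured arrays of a number share.

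**Figure D4:**
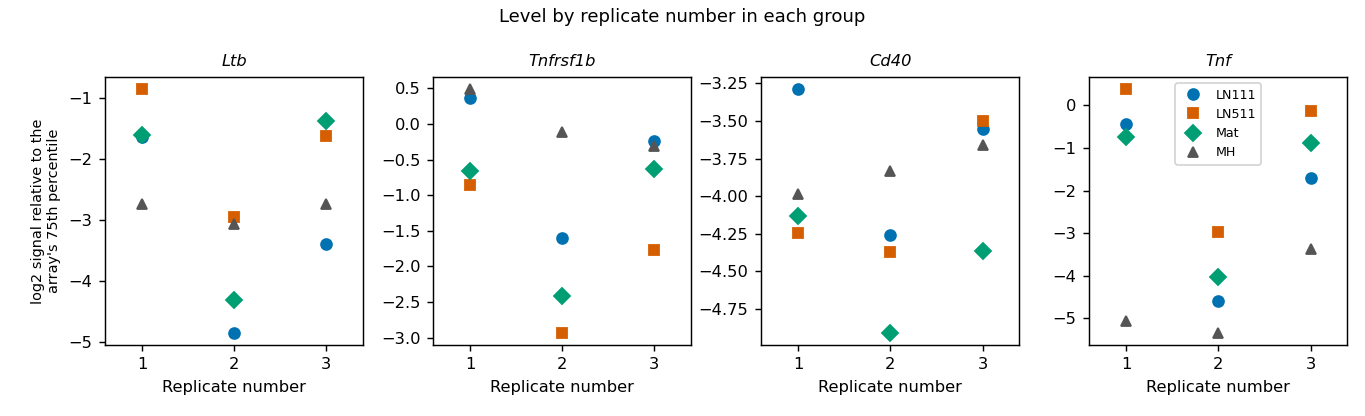
Levels of Ltb, Tnfrsf1b, Cd40 and Tnf by replicate number, as log2 signal relative to the array's 75th percentile; each symbol is 1 array of LN111, LN511, Mat or MH. In LN111, LN511 and Mat, replicate 2 is the lowest of the 3 in each panel.

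Genes that act with the family were read from lists, in cultured against MH, where 30.8% of all genes were higher and 42% lower. Of 6 listed genes outside the naming rule, 4 were tested. Not tested were Eda2r, described with Eda, and Cd40lg, which was above background on no array. The 3 tested genes that belong to the family were Tnf and Relt, higher in cultured cells than in MH, and Ltbr, lower. Tnf, the ligand that gave the family its name, was at -0.44, -4.58 and -1.71 on LN111, 0.38, -2.97 and -0.13 on LN511, -0.73, -4.03 and -0.87 on Mat, and -5.06, -5.34 and -3.37 on MH, where 1 of 3 arrays was above background. Its levels ranged widely in culture and overlapped MH, and the difference was 2.91 ± 1.05 log2 (adjusted p = 0.028). Relt, a receptor, was 1.54 ± 0.20 log2 higher, and Ltbr, the receptor of Ltb, fell by 1.08 ± 0.12 log2. The fourth on that list, Pglyrp1, codes for a peptidoglycan recognition protein and is not a family member; it was at least 7.16-fold higher.

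Proteases that release the ligands, and their helpers, were mostly higher. Of 6 tested, 4 rose and 1 fell, against 30.8% higher and 42% lower over all genes. Rhbdf2 and Rhbdf1, the rhomboid-like proteins that carry the TNF-shedding protease Adam17 to the surface, rose by 3.65 ± 0.14 and 2.44 ± 0.16 log2, Adam10 by 1.75 ± 0.18 and Adam17 by 0.67 ± 0.10. Furin, a convertase known to cleave Tnfsf13, Tnfsf12 and Eda, fell by 1.77 ± 0.12 log2. Of 16 tested genes that TNF is known to induce, 14 rose and none fell, with a median of 2.34 log2, against -0.18 over all genes. Ccl2 rose by 9.72 ± 0.60 and Cxcl2 by 9.19 ± 0.79, both chemokines, while the chemokine Ccl20 and the iron-binding protein Lcn2, not above background in MH, were at least 25.8-fold and 75.1-fold higher. Sod2 and Vcam1 did not pass, at -0.30 and 1.05 log2. Many of these genes also answer to other signals.

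Inside the cell, the lists moved both ways. In this comparison 72.8% of all genes passed, 30.8% higher and 42% lower, so calls of both signs are common. Of 9 tested adaptors, 4 rose and 3 fell: Traf7 rose by 2.29 and Traf3 by 1.46 log2, while Traf1 fell by 1.45. Of 13 genes of the death branch, 6 rose and 3 fell. Ripk3, a kinase of necroptosis, rose by 2.47 ± 0.18 log2, and so did Casp8, the caspase that Fas recruits, by 1.11 ± 0.20, and Cflar, which blocks it, by 2.01 ± 0.55; Cycs, cytochrome c, fell by 1.41 ± 0.12. Of 11 genes of ubiquitin chains and feedback, 5 rose and 3 fell, led by Tnfaip3, the feedback inhibitor A20, at 4.95 ± 0.39 log2. Otulin, which removes linear ubiquitin chains, fell by 1.86 ± 0.13 log2. Birc3, an inhibitor of apoptosis, rose by 1.51 while its relatives Birc2 and Xiap fell by 1.64 and 1.40 log2. Of 11 kinase-branch genes, 3 rose and 4 fell; Mapk9, or JNK2, fell by 1.73 ± 0.14 log2 and Chuk, the IKK alpha kinase, by 1.26 ± 0.13. List medians were -0.07 log2 for adaptors, 0.25 for the death branch, 0.22 for ubiquitin genes and 0.05 for the kinase branch, against -0.18 over all genes.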

How the data were processed

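RNA (100 ng, labelled with Cy3) was measured on 12 single-colour Agilent arrays, 3 a group. Per the file headers, images were read with Feature Extraction 10.7.3.1 (10.7 per the submitters' processing notes), and the deposited processed signal is a background-subtracted, linear intensity that was not scaled between arrays. The authors' deposited value table held the same intensity to within 0.0072 log2, on a linear scale, uncentred, with column medians of 61.8, 58.99 and 45.1 for LN111, 45.5, 49.01 and 43.6 for LN511, 85.5, 90.9 and 57.5 for Mat, and 27.5, 27.6 and 23.6 for MH.

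From it, log2 of the signal minus the array's 75th percentile was computed, without control and outlier-marked spots, over 45489 probes (109 were lost). Testing required a probe well above background on every array of some group in the fit, and the brightest such probe stood for the gene. A gene above background in some groups only was thus tested through those groups, which favours a higher level in them. Members kept the file's names; other probes were named through RefSeq accession (21109 directly, 2736 through another accession), symbol (5129) or older symbol (344), and 16280 kept the file's name. Tests were two-sided, by limma 3.58.1 (R 4.3.3) with Benjamini-Hochberg adjustment over all genes: comparisons with MH in 1 fit of 12 arrays (cultured is the mean of 3 group means), coatings in 1 fit of 9. The test code was tested on simulated data. The number of arrays limits the precision.

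Members given array by array passed an adjusted p of 0.05 with at least 1 log2 in cultured against MH, or passed in a coating comparison; of each pathway list, the 2 largest passing differences and genes not above background in a group were named, and other list or marker genes were chosen after their values were seen. Members and lists were chosen with earlier results of these data known, and the replicates of each group with 1 number were checked for shared deviation: correlations of same-numbered arrays were 0.54, 0.72 and 0.13 for LN511 with Mat, 0.47, 0.54 and 0.07 for LN111 with LN511, and 0.55, 0.71 and 0.09 for LN111 with Mat, and -0.03 to 0.06 for pairs with MH. Only the first pair passed 0.1 for all 3 numbers. Alternatives covered background correction, scaling, filters, probe choice, weights, replicate and slide blocks, the value table and single arrays left out. Promoters are RefSeq's for GRCr8; probe coordinates are the file's for rn4. No genome was used.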

Additional observations from a re-analysis of the deposited data

How the results depend on the processing

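Of 1371 member values recomputed under alternatives, 1230 kept direction and side of the threshold, 89 lost the call, 23 gained it and 29 changed sign; the causes were not tested. The count kept is raised by settings that could hardly change a difference. Leaving out an array of a group outside the comparison left the difference as it was, and the value table held nearly the same intensities. Members called in cultured against MH were 5 with the strict filter, which tests fewer genes, and 24 with no filter, which adds members at background. With the slide block 8 were called. Of all genes, 72.3%, 63% and 52.9% were called there, against 72.8% in the main fit. The other alternatives gave 10 to 14 members and 67.7% to 74.7% of all genes. For LN111 against MH the strict filter gave 5 and no filter 20, against 66.5% and 53.8% of all genes. For LN511 against MH they gave 6 and 17, against 66.2% and 38.1%, and for Mat against MH 5 and 20, against 67.3% and 63.9%. LN511 against Mat, with 1 call and 8.23% of all genes, gave 2 under normexp (19.9%) and quantile scaling (6.35%) and 11 without scaling (61.2%). It gave 8 with array weights (45.2%) and 3 with the replicate block (13.3%). No member was called under the strict filter (5.44%), no filter (4.23%), raised signals (8.59%), the slide block (0.731%) and within slide 2 (0.462%). LN111 against LN511, with 5 calls and 17.9% of all genes, gave 2 under normexp (15.9%), 3 without scaling (11%) and 2 with the strict filter (14.6%). The F test gave 10 without scaling, for which no share of all genes was recorded. Leaving out 1 array in the comparisons with MH gave 11 to 14 members for cultured, with 67.7% to 73.5% of all genes. It gave 9 to 11 for LN111, with 62.3% to 65.9%. For LN511 it gave 11 to 14, with 61.8% to 68.8%, and for Mat 7 to 11, with 60.9% to 68.7%. LN111 against Mat gave 0, with at most 0.0386%, and LN511 against Mat 0 to 1, with 3.54% to 9.6%. LN111 against LN511 gave 4 to 5, with 10.3% to 22.9%. The split of higher and lower calls in cultured against MH was 2 and 9 under normexp, 6 and 6 under quantile scaling and 8 and 2 without scaling, where the median of all genes was -0.40, 0.18 and 0.86 log2 against -0.18. The shares of all genes higher and lower were 18.8% and 51.4%, 41.7% and 32.6%, and 57.4% and 16.1%. The replicate block gave 14 calls in cultured against MH (74.4% of all genes), where Tnfrsf1b was gained (adjusted p = 0.00446), and 7 in LN111 against LN511 (27.2%). Only LN511 with Mat passed 0.1 for all 3 numbers in the pairing check. Correlations of same-numbered arrays were 0.47, 0.54 and 0.07 for LN111 with LN511, and 0.55, 0.71 and 0.09 for LN111 with Mat. Whether those arrays are paired is therefore not settled.

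Signs changed as follows, in log2. Under normexp, Eda was -0.41, Faslg -0.16 and Tnfrsf10b -0.15 in cultured against MH; Tnfrsf10b was -0.23 and Eda -0.056 in LN111, and -0.27 and -0.76 in Mat, against MH; Eda was 0.35 and Tnfrsf26 0.35 in LN511 against Mat. Without scaling, Cd40 was 0.80, Tnfrsf1a 0.40 and Tnfrsf4 0.38 in cultured against MH, Tnfrsf11b 0.68 and Tnfrsf26 0.90 in LN111 against MH, Eda 0.38 in LN511 against MH, and Tnfrsf11b 0.76, Tnfrsf26 0.43, Tnfrsf9 0.18 and Tnfsf12 0.49 in Mat against MH. Also without scaling, Tnfrsf11b was -0.083 in LN111 against Mat, and Tnfrsf12a -0.625 and Tnfsf13 -0.78 in LN511 against Mat. Quantile scaling gave 0.17 for Tnfrsf1a, and the slide block -0.20 for Faslg and -0.89 for Ltb, in cultured against MH. Leaving out 1 array gave -0.048 (without MH replicate 2) to 0.27 for Faslg in cultured against MH; leaving out LN111 replicate 2 or MH replicate 3 gave 0.14 and 0.02 for Tnfrsf26 in LN111 against MH, and Eda in LN511 against MH ranged from -0.37 to 0.0041, its highest being without MH replicate 1. Tnfsf9 was 0.42 log2 and did not pass under normexp. Values near background, in particular those of Eda, Tnfrsf26 and Tnfrsf4, are bounded by the probes' signal over background.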

Other observations

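Some family genes that sit close together on the array's rn4 map were not detected together. Faslg, Tnfsf18 and Tnfsf4 lie on chromosome 13, where 1 Faslg probe was above background on all 12 arrays and Tnfsf4 and Tnfsf18 on none. Lta and Ltb lie on chromosome 20. Ltb was above background on all 12 arrays, and Lta on 2 Mat arrays and 1 MH array. Of the receptors on chromosome 5, Tnfrsf1b was above background everywhere and Tnfrsf8 on 1 Mat array.

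Of 3 tested mesothelial markers, 2 were higher in cultured cells than in MH and 1 was lower, against 30.8% and 42% of all genes. Msln was 8.66 ± 0.47 log2 higher and Wt1 at least 1.82-fold higher, while Lrrn4 fell by 1.62 ± 0.20 log2. The mesothelial sum, most of it Msln, was 6.09 to 30.2 in culture against 0.327 to 0.436 in MH. S100a8, the only neutrophil marker tested, did not pass (adjusted p = 0.063). The part of either cell type in the members' values was not tested.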
